A study of Mus musculus with 4 samples.

Results

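The 10 genes described here are the mouse Toll-like receptor genes Tlr1, Tlr2, Tlr3, Tlr4, Tlr6, Tlr7, Tlr8, Tlr9 and Tlr13, and Cd14, which encodes a co-receptor of several of them. They were taken by symbol from the 31253 genes counted in each of 4 single-cell RNA sequencing libraries of mouse brain, and all 10 were present. No measured value entered the choice. Toll-like receptors are membrane proteins of the innate immune system that bind molecules released by microbes or by damaged cells and signal through the adaptors MyD88 and TRIF to NF-kB and interferon regulatory factors. TLR1, TLR2, TLR4 and TLR6 sit at the cell surface. TLR2 pairs with TLR1 or TLR6 to bind lipopeptides, and TLR4 works with the secreted protein MD-2 (gene Ly96) and with CD14, which hands lipopolysaccharide over to it. TLR3, TLR7, TLR8, TLR9 and TLR13 sit in endosomes and bind double-stranded RNA (TLR3), single-stranded RNA (TLR7 and TLR8), DNA (TLR9) and, in mice, bacterial ribosomal RNA (TLR13). In ischemic brain these receptors are known mainly as sensors of debris from dying cells.

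The tissue was the ipsilateral hemisphere, taken on day 3 of tMCAO, the transient occlusion of the middle cerebral artery that models an ischemic stroke followed by reperfusion. The tested mice, labelled Ms4a3 (Ms4a3 cKO here), were of the genotype Htr2b ERCre; Ms4a3-Cre, and the controls, labelled Flox (Flox control here), were Htr2b flox/flox littermates, with 2 libraries each. Htr2b encodes the serotonin receptor 5-HT2B, and Ms4a3 is active in progenitors of granulocytes and monocytes. The labels give tamoxifen with a 3-day washout before surgery without dividing it by genotype, adult mice that were male and/or female, and C57B6 for every sample. They name both an ERCre and Ms4a3-Cre, so which Cre acted cannot be read from them, and they do not say whether the 2 libraries of a genotype came from separate animals. The p-values below thus reflect just the spread from library to library, which may be technical. The study's stated interest was in myeloid cells, in particular microglia against infiltrating monocyte-derived macrophages, and in what loss of Htr2b does to them. Cells were caught in microwells with no sorting, and captured transcripts were read from the 3′ end and counted by their unique molecular identifiers (UMIs), so that 1 UMI stands for 1 captured transcript.

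After filtering, 14904 and 15299 cells of the cKO libraries and 13215 and 16267 cells of the Flox libraries were kept, with medians of 3764 and 4004 UMIs per cell in cKO and 6599 and 5523 in Flox. Clusters were named from marker genes, and a class name below stands for cells like that type. Microglia numbered 4688 and 6173 cells in cKO and 5270 and 4428 in Flox, and monocyte-macrophages 2914 and 1578 in cKO and 4375 and 4655 in Flox. Neutrophils numbered 1272 and 292 in cKO and 159 and 509 in Flox. Different clusters held most of a class in different libraries. Cluster 7 held 1543 and 783 monocyte-macrophages in cKO and 16 and 362 in Flox. Cluster 3 held 371 and 573 in cKO and 192 and 3316 in Flox. Most Flox control 1 microglia lay in clusters 6 and 10 and most of its monocyte-macrophages in cluster 5, whereas cluster 0 was the largest microglial cluster of the other 3 libraries. The 10 neutrophil markers summed to 61279 and 52967 counts per 1000000 UMIs (CPM) in the neutrophil class of the cKO libraries and to 80411 and 15284 CPM in that of Flox control 1 and 2, so Flox control 2 stood apart.

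Promoter windows, the 250 bases before the annotated transcript start, were found in RefSeq (GRCm38.p6) for 7 of the 10 genes, Tlr1, Tlr2, Tlr3, Tlr6, Tlr8, Tlr9 and Tlr13. The windows of 4 of them are shown because the results turn on how these genes differ: Tlr1 and Tlr6 are close paralogs and neighbours on chromosome 5, Tlr2 is their shared partner, and Tlr3 is the gene with the most different distribution over cell types. Each is given 5′ to 3′ on the strand of its gene, which is the minus strand for all 4. Capitals mark matches to 3 motifs searched on both strands: GAGGAAGT (the PU.1 type of ETS site), GAAA followed by NN and a second GAAA (an interferon-stimulated response element) and GGGA followed by NNNN and CC (an NF-kB site).
Tlr1, chr5:64933559-64933808: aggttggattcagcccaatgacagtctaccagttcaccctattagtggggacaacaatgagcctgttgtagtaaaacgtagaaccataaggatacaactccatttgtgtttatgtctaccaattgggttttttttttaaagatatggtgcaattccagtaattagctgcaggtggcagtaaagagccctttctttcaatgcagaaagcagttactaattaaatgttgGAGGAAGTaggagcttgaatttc
Tlr6, chr5:64959167-64959416: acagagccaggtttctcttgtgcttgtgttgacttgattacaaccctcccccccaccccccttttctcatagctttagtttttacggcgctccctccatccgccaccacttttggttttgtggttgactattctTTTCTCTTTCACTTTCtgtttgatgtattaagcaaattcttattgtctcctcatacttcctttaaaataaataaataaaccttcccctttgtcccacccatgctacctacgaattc
Tlr2, chr3:83841609-83841858: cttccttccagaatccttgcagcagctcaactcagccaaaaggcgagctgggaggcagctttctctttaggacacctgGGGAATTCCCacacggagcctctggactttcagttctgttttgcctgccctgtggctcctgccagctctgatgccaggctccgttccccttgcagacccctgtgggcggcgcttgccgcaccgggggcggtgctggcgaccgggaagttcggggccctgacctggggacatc
Tlr3, chr8:45410381-45410630: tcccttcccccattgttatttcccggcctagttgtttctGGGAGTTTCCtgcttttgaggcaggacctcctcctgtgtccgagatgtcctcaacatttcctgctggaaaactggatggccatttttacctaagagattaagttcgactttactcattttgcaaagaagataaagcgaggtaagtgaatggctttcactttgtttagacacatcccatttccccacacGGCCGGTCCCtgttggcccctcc
The Tlr1 window held GAGGAAGT with its first base 23 bases before the start (position -23). The Tlr6 window held 2 overlapping interferon-stimulated response elements on the opposite strand, at -116 and -110. The Tlr2 window held an NF-kB match at -172 on both strands, and the Tlr3 window held one at -211 and, on the opposite strand, at -23. Among 32851 mouse promoter windows of the same length, 2.44% held the PU.1-type letters, 2.98% those of the interferon-stimulated response element and 17.6% those of the NF-kB site. The second RefSeq windows of Tlr1 and Tlr6 and those of Tlr8, Tlr9 and Tlr13 held no match. A match is a description of the sequence and does not show that a factor binds.

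Across cell types, 9 of the 10 genes had their highest mean level in phagocytes, but not in the same ones. Tlr2 and Tlr7 were highest in microglia, Tlr4 and Tlr8 in border macrophages, which line the meninges and vessels, and Tlr6, Tlr13 and Cd14 in neutrophils. Tlr1 was spread almost evenly over the macrophage classes, Tlr9 had its highest mean in microglia but was close to the limit of detection everywhere, and Tlr3 was highest in astrocytes. Levels between classes are CPM of the summed UMIs of a class, given as mean ± SD over the 4 libraries. They are a description with no test, because the classes were made by clustering the same cells, although none of the 10 genes was among the 2000 genes used to cluster. UMIs at 3′ ends do not scale with transcript length, but capture differs between genes, so levels are compared between cells for 1 gene and not between genes.

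**Figure D1:**
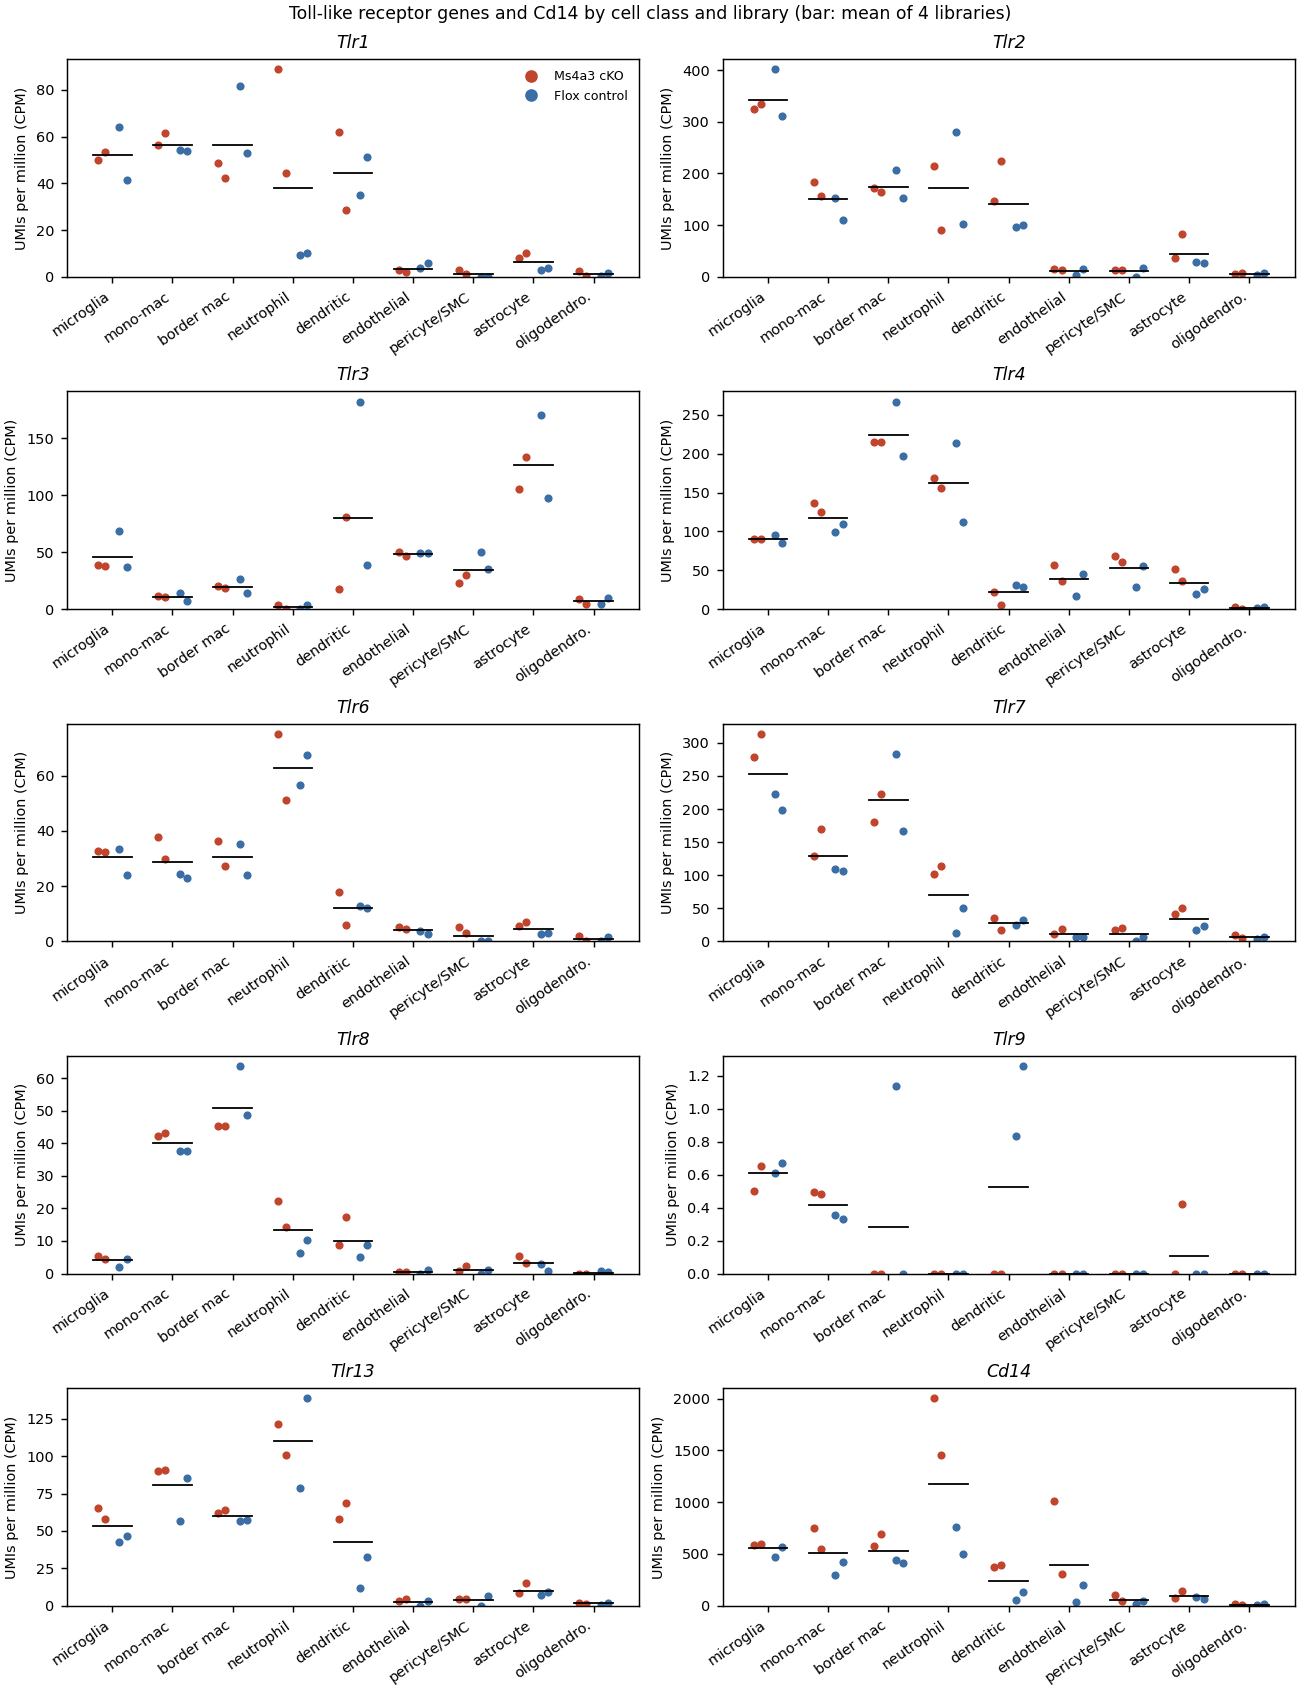
Level of each gene in 9 cell classes, in CPM of the summed counts of a class (linear axes that differ between panels); points are libraries, Ms4a3 cKO left and Flox control right, and bars the mean of the 4. Tlr2 in microglia (lowest 312 CPM) lies above every library of the other 8 classes, and Tlr3 is the only panel whose highest mean stands in astrocytes.

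Among the surface receptors for lipopeptides, Tlr2 had 325 and 334 CPM in cKO microglia and 401 and 312 CPM in Flox microglia, a mean of 343 ± 39.9 CPM (SD, n = 4 libraries). Border macrophages followed with 174 ± 23.7, neutrophils with 172 ± 91.5 and monocyte-macrophages with 151 ± 30.1 CPM. The microglial range did not touch that of the classes that followed, and the 3 classes that followed overlapped each other. Cells of at least 1000 UMIs were thinned to 1000 UMIs, which removes differences in depth, and shallower cells were left out of thinned shares. A Tlr2 UMI was then found in 25.1% of microglia and 14.9% of monocyte-macrophages, on average over libraries. It was found in 0.162% of oligodendrocytes, taken as cells that should lack it (unthinned 66.9, 57.4 and 3.11%). Median depths were 4839 and 5698 UMIs in cKO and 6396 and 6104.5 in Flox for microglia, and 5453.5 and 6209.5 in cKO and 7577.5 and 5640.5 in Flox for oligodendrocytes.

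Its partners had other patterns. Tlr1 (chr5:64924679-64933563, minus strand, GRCm38) averaged 56.6 ± 3.38 CPM in monocyte-macrophages, 56.4 ± 17.5 in border macrophages and 52.4 ± 9.35 in microglia, whose ranges overlapped. Tlr6 (chr5:64952031-64960097, minus strand), which ends 18468 bases before Tlr1 begins, averaged 62.6 ± 10.7 CPM in neutrophils, above the whole range of border macrophages (30.7 ± 6.05), microglia (30.5 ± 4.45) and monocyte-macrophages (28.7 ± 6.66). The neighbours thus shared the macrophage classes, where neither differed beyond the spread over libraries, and parted in neutrophils, where Tlr1 ranged from 9.45 to 88.8 CPM and Tlr6 from 51.3 to 75.1 CPM. Tlr2 itself lies on another chromosome (chr3:83836272-83841767, minus strand).

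Tlr4 (chr4:66827584-66930284, plus strand) had 216 and 215 CPM in cKO border macrophages and 267 and 197 CPM in Flox border macrophages, a mean of 224 ± 30.1. Neutrophils had 163 ± 41.8, monocyte-macrophages 118 ± 16.9 and microglia 90.2 ± 4.43 CPM. The border macrophage and neutrophil ranges overlapped, whereas monocyte-macrophages stood above microglia in all libraries, with a lowest value of 99.2 against a highest of 95.5 CPM. Tlr4 was also found outside the immune cells, with 53.2 ± 17.2 CPM in pericytes and smooth muscle cells and 38.5 ± 16.9 in endothelial cells. The UMI ratio of Tlr4 to Tlr7 was 5.24 and 1.87 in cKO and 2.25 and 6.60 in Flox endothelial cells. In microglia it was 0.326 and 0.286 in cKO and 0.430 and 0.426 in Flox. The endothelial ratio thus stood above that of microglia in all 4 libraries (in Flox control 1 it rests on 9 against 4 UMIs). Neutrophils overlapped with endothelial cells, with 1.66 and 1.38 in cKO and 17 and 2.23 in Flox (the 17 from 68 against 4 UMIs). Ly96, whose protein MD-2 binds lipopolysaccharide together with TLR4, averaged 81.9 ± 19.9 CPM in border macrophages, 69.7 ± 4.29 in monocyte-macrophages, 44.6 ± 6.26 in microglia, 44.3 ± 11.4 in neutrophils and 35.7 ± 7.46 in endothelial cells, so that it had its highest mean in the same class as Tlr4.

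Cd14 (chromosome 18, 36725067 to 36726798, minus strand) was at 2002 and 1455 CPM in cKO neutrophils and 759 and 503 CPM in Flox neutrophils, a mean of 1179 ± 680. Microglia averaged 556 ± 56.6, border macrophages 531 ± 129.9 and monocyte-macrophages 507 ± 192 CPM, and these ranges overlapped. Endothelial libraries differed widely from each other, with 1012 and 307 CPM in cKO and 39.9 and 205 in Flox. After thinning to 1000 UMIs per cell a Cd14 UMI was seen in 72.5 and 63.2% of cKO and 33.3 and 28.8% of Flox neutrophils, in 35.4% of microglia and 35.1% of monocyte-macrophages on average, and in 0.651% of oligodendrocytes (unthinned averages of 57.4, 75.7, 76.7 and 4.72%). The unthinned neutrophil share was lower than that of macrophages although the level was higher. Neutrophils had medians of only 1974.5 and 1522 UMIs per cell in cKO and 1682 and 1289 in Flox. Thinning left out 90 and 34 neutrophils in cKO and 3 and 116 in Flox, those under 1000 UMIs.

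Of the endosomal receptors for single-stranded RNA, Tlr7 (chrX:167304929-167330558, minus strand) had 279 and 314 CPM in cKO and 222 and 199 CPM in Flox microglia, a mean of 253 ± 52.3. Border macrophages overlapped with it at 213 ± 52.4 CPM, monocyte-macrophages averaged 129 ± 29.1 and neutrophils 69.5 ± 46.7. Its neighbour Tlr8 (chrX:167242696-167264329, minus strand) had another order, with microglia at the low end: 50.7 ± 8.75 CPM in border macrophages, 40.1 ± 2.93 in monocyte-macrophages, 13.3 ± 6.81 in neutrophils and 4.09 ± 1.54 in microglia. The lowest monocyte-macrophage value was 37.5 CPM and the highest microglial value 5.47 CPM. For every UMI of Tlr7 there were 0.327 and 0.254 of Tlr8 in cKO and 0.343 and 0.354 in Flox monocyte-macrophages, but 0.0196 and 0.0144 in cKO and 0.0085 and 0.0226 in Flox microglia. After thinning, a Tlr8 UMI was seen in 4.14% of monocyte-macrophages, 4.00% of border macrophages, 0.265% of microglia and 0% of oligodendrocytes (unthinned 25.2, 25.6, 2.46 and 0.235%).

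Tlr13 (chrX:106143204-106160493, plus strand) averaged 109.9 ± 25.9 CPM in neutrophils, 80.7 ± 16.2 in monocyte-macrophages, 60.1 ± 3.73 in border macrophages and 53.1 ± 10.6 in microglia, and each class overlapped with the next. Tlr9 (chr9:106222598-106226883, plus strand) was found as 15 and 28 UMIs in cKO and 23 and 22 UMIs in Flox microglia, a level of 0.609 ± 0.0772 CPM, and at 0.416 ± 0.0852 CPM in monocyte-macrophages. Neutrophils held 0 Tlr9 UMIs in every library. A count of 0 allows up to 3 UMIs, or 1.03 and 5.31 CPM in cKO and 9.45 and 3.89 CPM in Flox neutrophils, so a level like that of microglia was not detectable there. Such limits cover counting error only.

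Tlr3 (chr8:45395665-45411080, minus strand) stood apart from the other 9 genes. Astrocytes had 105 and 134 CPM in cKO and 170.1 and 97.9 CPM in Flox, a mean of 127 ± 32.8, followed by endothelial cells with 49.95 and 46.7 in cKO and 49.0 and 49.3 in Flox (mean 48.7 ± 1.42). Microglia averaged 45.8 ± 15.4, pericytes and smooth muscle cells 34.5 ± 11.8, monocyte-macrophages 10.9 ± 3.03 and neutrophils 1.83 ± 2.12 CPM. Dendritic cells overlapped with astrocytes because of 1 library, with 17.8 and 80.5 CPM in cKO and 182 and 39.0 in Flox, from 4 and 14 UMIs in cKO and 438 and 93 in Flox. The astrocyte class had 2 clusters. Cluster 22 had 228 and 253 CPM in cKO and 272 and 326 in Flox, and cluster 16, whose cells were shallow and had more microglial transcripts such as Tlr2 (46.7 and 126 CPM in cKO and 46.1 and 28.8 in Flox), had 49.7 and 47.7 CPM of Tlr3 in cKO and 75.9 and 45.1 in Flox. Tlr3 to Tlr7 UMI ratios were 2.57 and 2.65 in cKO and 10.1 and 4.11 in Flox astrocytes, against 0.139 and 0.122 in cKO and 0.310 and 0.188 in Flox microglia. After thinning, a Tlr3 UMI was seen in 13.5% of astrocytes, 5.27% of endothelial cells, 4.71% of microglia and 0.610% of oligodendrocytes (unthinned 24.4, 13.2, 24.1 and 3.24%). Tlr3 overlaps the antisense gene Gm45542, and strand use in the counting is not given in the sources used here, so its UMIs are uncertain to that extent.

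Within microglia and monocyte-macrophages the genes followed cluster lines. Cluster 8, the monocyte-macrophages with Ly6c2 and Ccr2, had the highest mean Cd14 of these clusters, with 1697 and 1680 CPM in cKO and 693 and 715 in Flox, against 290.2 and 329 in cKO and 303 and 370 in Flox in cluster 3. The same pair of clusters differed in Tlr2, with 333 and 364 CPM in cKO and 325 and 249.997 in Flox in cluster 8, and 83.4 and 90.6 in cKO and 202 and 85.9 in Flox in cluster 3. In every library Tlr2 and Cd14 were thus higher in cluster 8 than in cluster 3. Tlr7 had its highest mean in microglial cluster 0, with 359 and 422 CPM in cKO and 271 and 269.7 in Flox, and lower in the cycling cluster 4, with 216 and 237 in cKO and 162 and 146 in Flox. Tlr8 reached 9.49 and 7.58 CPM in cKO and 7.43 and 6.84 in Flox in microglial cluster 1, but no more than 1.90 CPM in any library in cluster 0. Cluster 23 was led by the interferon-stimulated genes Rsad2, Ifit2 and Cxcl10 and kept no class name, although its best-scoring markers were those of microglia. It had the most Tlr3 outside astrocytes, with 112 and 127 CPM in cKO and 242 and 105 in Flox. The clusters were made from the same cells, so no test was made between them.

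**Figure D2:**
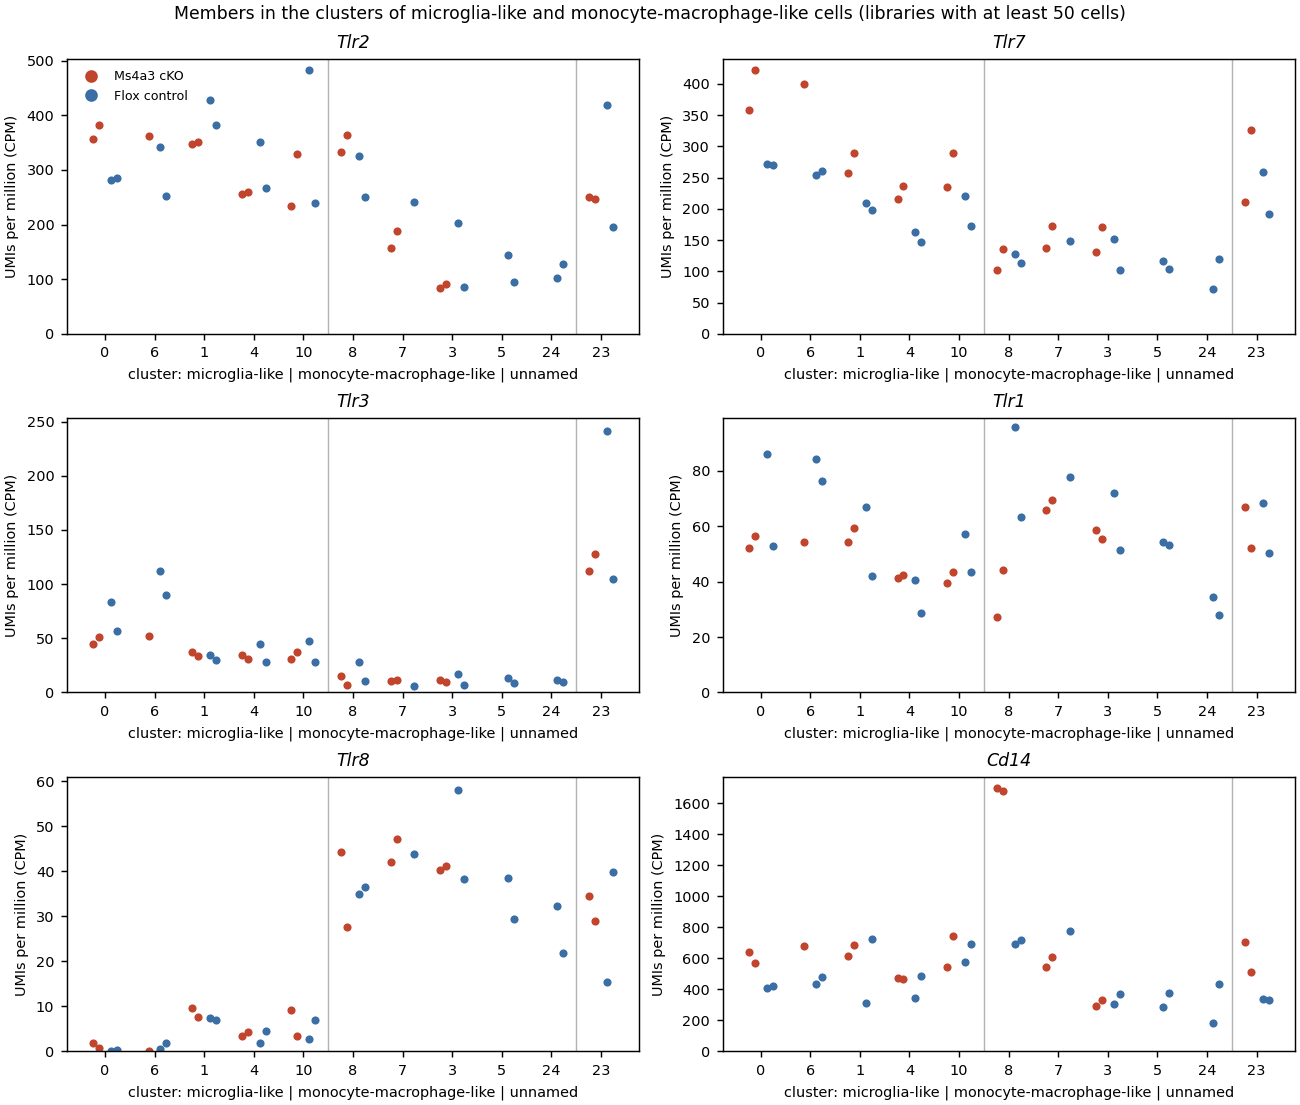
Level of 6 genes in the clusters of microglia-like cells (0, 6, 1, 4, 10), monocyte-macrophage-like cells (8, 7, 3, 5, 24) and the unnamed interferon-led cluster 23, in CPM (linear axes); points are libraries with at least 50 cells in the cluster, Ms4a3 cKO left and Flox control right. Cd14 in cluster 8 reaches 1697 and 1680 CPM in cKO, against 693 and 715 CPM in Flox, and Tlr8 divides microglial from monocyte-macrophage clusters.

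The remaining Toll-like receptor genes were scarce. Tlr5, the flagellin receptor, averaged 3.81 CPM in border macrophages and 0.855 in monocyte-macrophages. Tlr11, which in mice binds profilin of protozoa, averaged 8.09 ± 10.6 CPM in dendritic cells, with 1 and 0 UMIs in cKO and 57 and 10 in Flox, and Tlr12 averaged 1.29 CPM in microglia. Of the genes that serve the receptors, Unc93b1, which carries the endosomal receptors out of the endoplasmic reticulum, was found in all macrophage classes, with 429 ± 153 CPM in border macrophages, 396 ± 81.6 in monocyte-macrophages and 388 ± 151 in microglia. Such genes were compared over microglia, monocyte-macrophages, border macrophages, neutrophils, dendritic cells, endothelial cells, astrocytes and oligodendrocytes. Cd180 and Ly86 encode the RP105 and MD-1 proteins, which resemble TLR4 and MD-2. Among these classes both were highest in microglia, with 772 ± 207 and 2854 ± 729 CPM. Myd88 and Tirap, which encode adaptors of Toll-like receptors, were highest among them in neutrophils with 91.7 ± 28.5 and 124 ± 28.6 CPM. Ticam2, which links TLR4 to TRIF, instead averaged 32.1 ± 5.42 CPM in border macrophages, 28.4 ± 2.51 in microglia and 3.13 ± 1.48 in neutrophils.

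Tlr3 was the gene least like the others in its pattern over cells. Likeness was described by Pearson's r of log2(CPM + 1) over 44 sums, 11 classes in 4 libraries. The sums of a library share its depth and the classes share free RNA, so r is a description and no p is given. Tlr3 had r between -0.00442 and 0.284 with the other 9 genes, which resembled each other more. Among those 9, r was 0.908 for Tlr4 with Cd14, 0.901 for Tlr1 with Tlr7, 0.896 for Tlr2 with Tlr7 and 0.863 for Tlr1 with Tlr6. Of 10495 genes searched, those most like Tlr2 were Nckap1l (0.960), Ccl3 (0.956) and Bcl2a1b (0.952), and those most like Tlr7 were Tnfrsf13b (0.958), C1qc (0.950) and Csf1r (0.947). Tlr4 was most like Sat1 (0.943), Rap1b (0.939) and Arhgdib (0.935), and Cd14 most like Tm6sf1 (0.95), Il6ra (0.942) and Lyn (0.940). The neighbours Tlr1 and Tlr6 had different genes nearest to them. Tlr6 was most like Spi1 (0.954), the gene of the transcription factor PU.1, Cd53 (0.945) and Cd37 (0.944), and Tlr1 like Cyth4 (0.926), Fcgr3 (0.922) and Laptm5 (0.917). Tlr13 was most like Arhgap30 (0.953), Snx20 (0.946) and Epsti1 (0.945), Tlr8 like Aoah (0.900), Wfdc17 (0.898) and Cd200r1 (0.885), Tlr9 like C1qb (0.726), Trem2 (0.723) and Abhd12 (0.720), and Tlr3 like Lxn (0.813), Tmem176a (0.804) and Itm2c (0.799).

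The question between the genotypes was whether these receptors differed in the genotype meant to lack Htr2b. The targeted gene itself was at 10.1 and 24.3 TMM-scaled CPM in cKO and 90.9 and 116 in Flox monocyte-macrophages (log2 fold change -2.60, SE 0.45, edgeR quasi-likelihood adjusted p = 0.338, or 9.905e-07 with DESeq2), and at 95.8 and 82.8 in cKO and 53.2 and 106 in Flox microglia (0.17, SE 0.34). In monocyte-macrophages edgeR called Htr2b when Flox control 1 (adjusted p = 0.0443) or Flox control 2 (0.0165) was left out, and when low counts were not filtered (0.00751). The 3′ tag does not show whether a transcript has lost its floxed part. Values between genotypes are TMM-scaled CPM, which edgeR normalizes within a class. With Benjamini-Hochberg adjustment over all genes of a class at a threshold of 0.05, edgeR called none of the 10 genes in any of the 11 classes tested, and neither did DESeq2. The background of edgeR calls was itself 0% in microglia (0 of 14280 genes), monocyte-macrophages (0 of 13254), neutrophils (0 of 6764), endothelial cells and astrocytes, and 0.316% in border macrophages. DESeq2 called 2.2% of genes in microglia, 3.52% in monocyte-macrophages, 0.739% in neutrophils, 1.48% in border macrophages, 0.572% in endothelial cells and 1.99% in astrocytes. At an unadjusted edgeR p under 0.05 stood 0 of 10 genes in microglia (10.7% of all genes), 1 of 10 in monocyte-macrophages (11.3%), 1 of 9 in border macrophages (10.7%), 3 of 7 in neutrophils (6.58%), 1 of 8 in endothelial cells (6.86%) and 4 of 8 in astrocytes (18.2%). Where fewer than 10 genes are counted, the others did not pass the filter on low counts. In the remaining classes the counts were 2 of 5 in fibroblasts (11.4% of all genes), 0 of 6 in choroid plexus (5.55%), 0 of 4 in oligodendrocytes (13.2%), 0 of 3 in oligodendrocyte cluster 14 (11.5%) and 0 of 1 in neuroblasts (6.45%). There edgeR's background of calls was 0% in fibroblasts, neuroblasts and oligodendrocyte cluster 14, 0.024% in choroid plexus and 1.03% in oligodendrocytes. DESeq2's was 2.04% in fibroblasts, 0.321% in choroid plexus, 3.26% in oligodendrocytes, 1.08% in oligodendrocyte cluster 14 and 0% in neuroblasts.

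**Figure D3:**
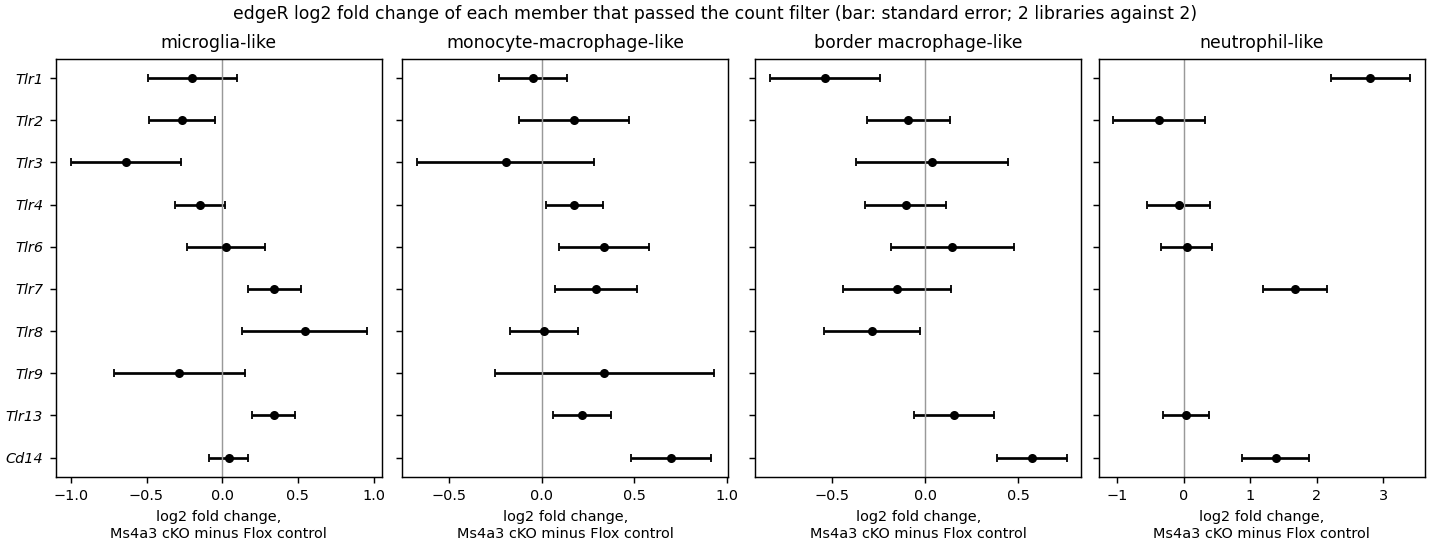
Log2 fold change, Ms4a3 cKO minus Flox control, of each of the 10 genes that passed the filter on low counts in 4 classes (linear axes that differ between panels); points are edgeR estimates and bars their standard errors, from 2 libraries against 2. Cd14 lies above 0 in monocyte-macrophages (0.70), border macrophages (0.57) and neutrophils (1.38) and near 0 in microglia (0.04), and none of the values passed the test.

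Cd14 had both cKO libraries above both Flox libraries in 3 of the 4 myeloid classes tested, as did Tlr13. Of all genes, 23.8% stood so in monocyte-macrophages, 21.8% in border macrophages, 18.1% in neutrophils and 24.9% in microglia. The classes come from the same 4 libraries and are not independent repeats, and the share of genes so placed in 3 of the 4 was not counted. For Cd14, monocyte-macrophages had 712 and 520.3 in cKO and 357 and 401 in Flox (log2 fold change 0.70, SE 0.22, edgeR adjusted p = 0.408). Border macrophages had 581 and 702 in cKO and 457 and 406 in Flox (0.57, SE 0.19, 0.330), and neutrophils 2152.5 and 1400.3 in cKO and 908 and 461 in Flox (1.38, SE 0.51, 0.687). In these 3 classes the groups did not overlap, whereas in microglia they did, with 555 and 569.6 in cKO and 533 and 559 in Flox (0.04, SE 0.13, edgeR adjusted p = 0.898). The makeup of the monocyte-macrophages by cluster differed between libraries, as given above, and its part in the Cd14 value was not tested. The difference was not seen in every cluster of monocyte-macrophages. It was 1.27 (SE 0.22, edgeR adjusted p = 0.0609) in cluster 8 alone and -0.11 (SE 0.16, 0.848) in cluster 3 alone, the pair that had at least 50 cells in every library. Without Flox control 2 the monocyte-macrophage value was 0.79 with an edgeR adjusted p of 0.0411, where 30.7% of all genes were called, and the border macrophage value passed without Flox control 1 (0.66, adjusted p = 0.00271) and without Flox control 2 (0.49, 0.0317), where 6.6 and 16.5% of all genes were called.

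**Figure D4:**
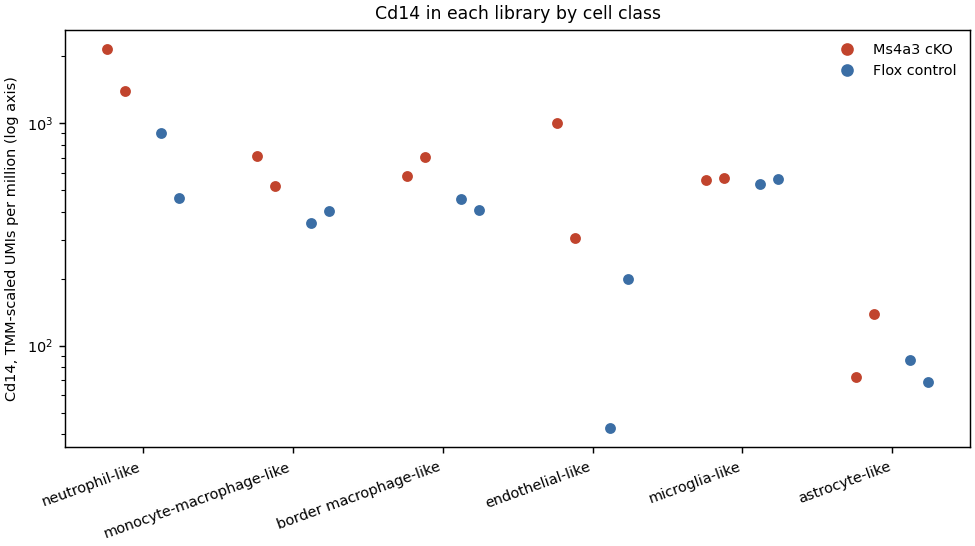
Cd14 in each library of 6 classes, in TMM-scaled CPM on a log axis; points are libraries, Ms4a3 cKO left and Flox control right in each class. The cKO points lie above the Flox points in neutrophils, monocyte-macrophages, border macrophages and endothelial cells, and overlap with them in microglia and astrocytes.

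In endothelial cells Cd14 had the widest difference, with 1004 and 304 in cKO and 42.5 and 199 in Flox, from 5468 and 1651 UMIs in cKO and 22 and 598 in Flox (log2 fold change 2.34, SE 0.78, edgeR adjusted p = 0.702). Leaving out Ms4a3 cKO 2 made it 2.99 with an adjusted p of 7.91e-05, where 0.486% of all genes were called, so the call depends on the libraries used. For each Tlr2 UMI endothelial cells had 66.7 and 21.7 Cd14 UMIs in cKO and 11 and 13.6 in Flox (the 11 from 22 against 2 UMIs), where microglia had 1.79 and 1.78 in cKO and 1.18 and 1.84 in Flox, and monocyte-macrophages 4.09 and 3.503 in cKO and 1.96 and 3.85 in Flox. Neutrophils had 9.31 and 16.1 in cKO and 2.71 and 4.91 in Flox. The sum of 10 neutrophil markers in endothelial cells was 190 and 37.2 CPM in cKO and 12.7 and 35.6 in Flox, and that of 13 microglial markers 4227 and 4236 in cKO and 3362 and 8296 in Flox. Their part in the result was not tested.

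In neutrophils 2 further genes stood higher in both cKO libraries. Tlr1 was at 95.5 and 42.6 in cKO and 11.3 and 9.51 in Flox (log2 fold change 2.81, SE 0.59, edgeR adjusted p = 0.347), from 259 and 25 UMIs in cKO and 3 and 8 in Flox. Tlr7 was at 109.5 and 109.0 in cKO and 15.1 and 46.4 in Flox (1.67, SE 0.48, 0.516), from 297 and 64 UMIs in cKO and 4 and 39 in Flox. The other 4 genes that passed the filter overlapped: Tlr2 with 231 and 86.9 in cKO and 335 and 93.9 in Flox, and Tlr4, Tlr6 and Tlr13 with log2 fold changes between -0.07 and 0.05. The 3 genes of 7 with both cKO libraries higher compare with 18.1% of all genes. Neutrophils split into 2 subsets at a finer resolution, and cKO 1 had 834 cells in the one rich in Retnlg, where the other libraries had 77, 33 and 12. In the other subset, with 437 and 214 cells in cKO and 126 and 496 in Flox, Tlr1 had a log2 fold change of 2.02 (SE 0.52, with an adjusted p of 0.235 by edgeR), Tlr7 of 1.75 (SE 0.61, 0.427) and Cd14 of 1.23 (SE 0.45, 0.450). Mmp8 in that subset was at 2188 and 2767 CPM in cKO and 265 and 84.3 in Flox, whereas Retnlg and S100a8 overlapped. In all neutrophils the border macrophage markers summed to 757 and 561 CPM in cKO and 34.6 and 342 in Flox. The sums of microglial and monocyte-macrophage markers overlapped between the genotypes. The part of these differences in the result was not tested. Without a filter on low counts edgeR called Tlr1 (adjusted p = 0.000162) and Tlr7 (0.0283) in neutrophils, along with 0.895% of all genes. Without Flox control 2 it called Tlr7 (2.85, 0.0252) along with 1.78% of all genes. Without Flox control 2, whose neutrophil marker sum given above was the lowest of the 4 libraries, Tlr1 had a value of 2.67 (SE 0.77, 0.119) and Cd14 of 0.98 (SE 0.55, 0.478).

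In microglia the 10 genes had a median log2 fold change of -0.06, against -0.0031 over all genes. Tlr7 had 265 and 299 in cKO and 251 and 194 in Flox (log2 fold change 0.34, SE 0.18, edgeR adjusted p = 0.508) and Tlr13 62.5 and 55.4 in cKO and 47.8 and 45.3 in Flox (0.34, SE 0.14, 0.474). They were the 2 of 10 with both cKO libraries higher, against 24.9% of all genes, and Tlr9 was the 1 with both lower, against 23.2%. Tlr7 had values of 0.44, 0.42, 0.47 and 0.37 in clusters 0, 1, 4 and 10 fitted alone, with edgeR adjusted p from 0.351 to 0.854. For Tlr1, Tlr2, Tlr3 and Tlr4 the Flox libraries disagreed. Tlr3 had 36.9 and 36.5 in cKO and 77.6 and 36.5 in Flox (-0.64, SE 0.37, 0.535), and Tlr2 309.6 and 319 in cKO and 453 and 305 in Flox (-0.27, SE 0.22, 0.628). Without Flox control 2, edgeR called Tlr1 (-0.58), Tlr2 (-0.55), Tlr3 (-1.10), Tlr4 (-0.35) and Tlr8 (1.13) with adjusted p from 0.00141 to 0.0475, where 31.3% of all genes were called. Without Flox control 1, Tlr1, Tlr2, Tlr3 and Tlr4 had values of 0.28, 0.047, 0.011 and 0.057, on the other side of 0. For these 4 genes the direction thus depended on which control library was used.

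In monocyte-macrophages 4 of 10 genes, Tlr4, Tlr9, Tlr13 and Cd14, had both cKO libraries higher, against 23.8% of all genes, and none had both lower, against 25.2%. Tlr4 was at 129.96 and 119 in cKO and 118 and 102 in Flox (log2 fold change 0.18, SE 0.15, edgeR adjusted p = 0.641) and Tlr13 at 85.6 and 85.8 in cKO and 67.3 and 80.2 in Flox (0.22, SE 0.16, 0.585). The other log2 fold changes lay between -0.19 for Tlr3 and 0.34 for Tlr6, and the median of the 10 was 0.20, against -0.02 over all genes. Tlr3 passed without Flox control 2 (-0.71, adjusted p = 0.0371) and was 0.64 without Flox control 1. In border macrophages Tlr1 was at 49.0 and 42.9 in cKO and 85.3 and 51.9 in Flox (-0.54, SE 0.30, 0.598) and Tlr8 at 45.6 and 45.96 in cKO and 66.3 and 47.8 in Flox (-0.29, SE 0.26, 0.763). Both were lower in 2 of 2 cKO libraries, and 2 of 9 genes compares with 21.4% of all genes. Another 2 of 9, against 21.8% of all genes, had both cKO libraries higher: Cd14, and Tlr13 with 62.9 and 65.0 in cKO and 59.2 and 55.99 in Flox (0.16, SE 0.22, 0.850). Without Flox control 2 edgeR called Tlr1 (-0.89, adjusted p = 0.00734) and Tlr7 (-0.53, 0.0306) there, where 16.5% of all genes were called.

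Outside the myeloid cells, too, some of the genes stood higher in both cKO libraries. In astrocytes 5 of 8 genes, Tlr1, Tlr2, Tlr4, Tlr6 and Tlr7, had both cKO libraries higher, against 25.8% of all genes. Tlr7 was at 41.1 and 50.3 in cKO and 17.8 and 23.6 in Flox (log2 fold change 1.11, SE 0.30, edgeR adjusted p = 0.193) and Tlr2 at 37.1 and 83.4 in cKO and 31.1 and 26.5 in Flox (1.10, SE 0.44, 0.267). Tlr3, whose highest mean over the classes stood in these cells, was at 106 and 133 in cKO and 179 and 96.8 in Flox (-0.18, SE 0.34, 0.816), and the groups overlapped. The sum of 13 microglial markers in astrocytes was 4002 and 4840 CPM in cKO and 3012 and 3106 in Flox. As with the 5 genes, both cKO libraries stood above both Flox libraries, whereas the sum of 14 monocyte-macrophage markers was 2019.9 and 2253 CPM in cKO and 4205 and 3022 in Flox. Their part in the result was not tested. In fibroblasts 3 of 5 genes had both cKO libraries higher, against 21.9% of all genes, among them Tlr4 with 59.2 and 59.8 in cKO and 25.05 and 26.95 in Flox (1.19, SE 0.29, edgeR adjusted p = 0.269). In neuroblasts the 1 gene that passed the filter was Cd14, higher in both cKO libraries from 24 and 20 UMIs in cKO and 0 and 9 in Flox, against 20.1% of all genes. In endothelial cells 4 of 8 genes had both cKO libraries higher, against 21.4% of all genes, and Tlr1 had both lower, against 17.8%. Tlr3, which had its second highest mean of the classes tested there, had a log2 fold change of -0.05 (SE 0.22, 0.999).

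Whether the genotype difference itself differed between monocyte-macrophages and microglia was tested as an interaction in 1 fit with library as a block. edgeR called 0% of 14883 genes (9.41% had an unadjusted p under 0.05), and none of the 10 genes was called. The difference between the log2 fold changes was 0.68 for Cd14 (SE 0.18, edgeR adjusted p = 0.436), 0.50 for Tlr2 (SE 0.15, 0.448), 0.52 for Tlr3 (SE 0.16, 0.460) and 0.35 for Tlr4 (SE 0.11, 0.479). These 4 had an unadjusted p under 0.05. Tlr7 had a value of -0.02 (SE 0.11, 0.966).

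The other genes of the pathway were grouped by role, and edgeR called none of them in any class, with 0 of 806 tests over the 11 classes passing and 125 at an unadjusted p under 0.05, whereas DESeq2 called 37. Over all genes, between 5.55 and 18.2% of a class had an unadjusted p under 0.05, and DESeq2 called between 0 and 3.52%. Of 18 accessory and trafficking genes, 9 had both cKO libraries lower and 1 both higher in monocyte-macrophages, with a median log2 fold change of -0.27 against -0.02 over all genes, and 8 had both lower and 2 both higher in microglia (median -0.19). Over all genes, 25.2% had both cKO libraries lower and 23.8% both higher in monocyte-macrophages, and 23.2 and 24.9% in microglia. Cd36, a scavenger receptor that feeds lipids to TLR2 and TLR4, was at 68.4 and 133 in cKO and 1348 and 408 in Flox monocyte-macrophages (-3.13, SE 0.69, edgeR adjusted p = 0.377). It was at 5.90 and 1.70 in cKO and 49.0 and 92.7 in Flox neutrophils (-3.93, SE 0.61, 0.216). Among the monocyte-macrophages, Cd36 was one of the 10 leading genes of clusters 5 and 24. Cluster 5 held 15 and 29 cells in cKO and 2860 and 285 in Flox, and cluster 24 held 11 and 30 in cKO and 599 and 67 in Flox. The part of this cluster makeup in the monocyte-macrophage value of Cd36 was not tested. Cd180 was at 193 and 277.5 in cKO and 714 and 490.25 in Flox monocyte-macrophages (-1.35, SE 0.29, 0.377) and at 525 and 612 in cKO and 1041 and 950.1 in Flox microglia (-0.81, SE 0.15, 0.459). Ly86, which encodes the partner protein of CD180, was at 2012 and 2269 in cKO and 4122 and 3196 in Flox microglia (-0.77, SE 0.19, 0.459). The sum of the 13 microglial markers was 3306 and 4300.3 CPM in cKO and 9577 and 5221 in Flox monocyte-macrophages, and 17025 and 17963 in cKO and 30880 and 20889 in Flox microglia. It too was lower in both cKO libraries, and its part in the values of Cd180 and Ly86 was not tested.

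Of the adaptors and kinases, 22 passed the filter in microglia and in monocyte-macrophages, with medians of 0.02 and 0.06. Myd88 in microglia was at 37.5 and 34.3 in cKO and 20.5 and 28.5 in Flox (0.55, SE 0.21, edgeR adjusted p = 0.467). Of the 13 transcription factors, Cebpb was higher in both cKO libraries of monocyte-macrophages, with 406 and 269 in cKO and 93.6 and 160.1 in Flox (1.41, SE 0.35, 0.377). Of 18 negative regulators that passed the filter in monocyte-macrophages, 10 had both cKO libraries higher, against 23.8% of all genes, and 0 both lower, against 25.2% (median 0.32). Among them Socs3, an inhibitor of cytokine signalling, had 428 and 330.05 in cKO and 80.7 and 199 in Flox (1.44, SE 0.46, 0.411). The part of the cluster makeup given above in the Cebpb and Socs3 values was not tested. In neutrophils 6 of 16 negative regulators had both cKO libraries lower and 2 both higher (median -0.32), against 16.9 and 18.1% of all genes. In microglia 7 of 19 had both higher and 3 both lower (median 0.17), against 24.9 and 23.2% of all genes. Of the scarce receptors, Tlr12 had both cKO libraries lower in microglia, with 0.73 and 0.645 in cKO and 2.40 and 1.55 in Flox (-1.52, SE 0.40, edgeR adjusted p = 0.459).

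Of the induced early response genes, 6 of 17 in monocyte-macrophages had both cKO libraries higher, against 23.8% of all genes, and 1 had both lower, against 25.2%, with a median log2 fold change of 0.37. Among them was Saa3, an acute-phase protein, with 2206.5 and 587 in cKO and 35.6 and 42.5 in Flox (5.16, SE 0.73, edgeR adjusted p = 0.318). Il1b was also higher in both, with 1252 and 580.1 in cKO and 151 and 308.5 in Flox (1.996, SE 0.52, 0.379). The part of the cluster makeup given above in the Saa3 and Il1b values was not tested. In neutrophils 9 of 14 had both cKO libraries lower, against 16.9% of all genes, and 1 had both higher, against 18.1% (median -1.09). Tnf had 318 and 492 in cKO and 1496 and 2015 in Flox neutrophils (-2.12, SE 0.45, 0.347), and Ccl3 685 and 744 in cKO and 3683 and 1978 in Flox (-1.98, SE 0.50, 0.431). Ptgs2, the inducible cyclooxygenase, had 397 and 785 in cKO and 3272 and 1904 in Flox (-2.13, SE 0.55, 0.441), and Atf3, a stress-induced transcription factor, 116 and 136 in cKO and 437 and 503 in Flox (-1.90, SE 0.33, 0.249). In microglia 2 of 17 had both cKO libraries higher and 5 both lower (median -0.02), against 24.9 and 23.2% of all genes. Without Flox control 2, with its low neutrophil marker sum, Tnf had a value of -1.89 in neutrophils (SE 0.47, edgeR adjusted p = 0.0659), and edgeR called Ccl3 (-2.36, 0.0267), Ptgs2 (-2.47, 0.0332) and Atf3 (-1.79, 0.0346), as well as Nfkbid of the negative regulators (-2.56, 0.00785), where 1.78% of all genes were called. The Retnlg-rich subset of neutrophils held 834 and 77 cells in cKO and 33 and 12 in Flox. Its part in the neutrophil values of the pathway genes was not tested. The difference between the classes was not tested.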

How the data were processed

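Single cells of 4 mouse brain libraries (2 Ms4a3 cKO, 2 Flox control) were captured on BD Rhapsody. The authors deposited raw UMI counts per gene and barcode, made with fastp 0.24.0 and STARsolo on mm10 per the submitters' processing notes. How the counting used strand or reads shared by paralogs is not given in the sources used here. Kept were barcodes of 500 or more UMIs and 250 or more genes with mitochondrial UMIs under 20% (60942 of 63181). Scrublet, run on each library at an assumed rate of 6%, removed 1257 doublets in all, between 1.50 and 2.50% of a library, leaving 59685 cells. Total UMIs were 77580518 and 84397197 in cKO and 105566650 and 105545311 in Flox, and 15 barcode sequences occurred in more than 1 library. Counts per 10000 were log-transformed, and 2000 variable genes, 30 principal components, 15 neighbours and Leiden clustering at resolution 1 (scanpy 1.11.5, leidenalg 0.10.2) gave 31 clusters, of which 29 were named from marker lists into 17 classes and 2 stayed unnamed. UMIs were summed per class and library, and the 11 classes with at least 50 cells in every library were tested with edgeR 4.0.16 (TMM, filterByExpr, quasi-likelihood F test, R 4.3.3) with Benjamini-Hochberg adjustment over all genes at 0.05. DESeq2 1.42.0 was an alternative, and further alternatives changed normalization, filters, clustering and libraries. With 2 libraries against 2 an exact permutation test cannot go below 0.333. Simulated counts were used to check the fits. Genes named were the 10 genes in every class tested, Htr2b, the scarce Toll-like receptors, pathway genes among the 3 with the smallest p per list in microglia, monocyte-macrophages and neutrophils, and the 3 genes most like each of the 10, of which a part is printed. For levels, accessory genes were chosen by their role. The genes and lists were chosen with earlier results of these data known.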

Additional observations from a re-analysis of the deposited data

Results flagged for a closer look

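Tlr1 had opposite directions in different classes, with every cKO library on one side of every Flox library in each class named here. Its log2 fold change in neutrophils exceeded that in border macrophages by 3.34 and that in endothelial cells by 3.98. In astrocytes it exceeded the border macrophage value by 1.89 and the endothelial value by 2.53. These differences between classes were not tested. Of all genes, 18.1% had both cKO libraries higher in neutrophils and 25.8% in astrocytes. Both were lower for 21.4% in border macrophages and 17.8% in endothelial cells. The endothelial value rests on 15 and 10 UMIs in cKO and 2 and 17 in Flox. Astrocytes had 12 and 24 Tlr1 UMIs in cKO and 2 and 9 in Flox, and neutrophils 259 and 25 in cKO and 3 and 8 in Flox. Tlr9 had both cKO libraries higher in monocyte-macrophages (as had 23.8% of all genes) and both lower in microglia (23.2%), a difference of 0.62 between the log2 fold changes of the separate fits. The interaction fit gave 0.69 (SE 0.54, edgeR adjusted p = 0.712), and the monocyte-macrophage values rest on 10 and 6 UMIs in cKO and 16 and 12 in Flox.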

How the results depend on the processing

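Of 1316 alternative log2 fold changes, 1202 kept their direction and their side of the threshold, 86 passed the threshold where the reported value did not, and 28 changed direction. The count of calls among the 10 genes was 0 in the settings tried other than these and the crossed pairing below: 3 without a filter on low counts (1 in astrocytes, 2 in neutrophils) and 0 to 13 with 1 library left out, where the lone library of a genotype is assumed to vary like the others. By class, that range was 0 to 5 in microglia, 0 to 3 in border macrophages, 0 to 2 in monocyte-macrophages and 0 to 1 each in neutrophils, endothelial cells, choroid plexus and neuroblasts, and the 13 came without Flox control 2. The count of calls in the pathway lists was 37 with DESeq2 (6 in microglia, 9 in monocyte-macrophages, 7 in neutrophils) and 58 without a filter (2, 4 and 7). It was 2 and 4 at Leiden resolutions 0.5 and 2, 4 with the receptor and pathway genes kept out of the variable genes, 4 after thinning, and 1 to 161 with 1 library left out (0 to 43 in microglia, 0 to 34 in monocyte-macrophages, 0 to 5 in neutrophils). The interaction gave 0 to 1 calls with 1 library left out. With 1 library left out, microglial values ranged from -0.58 to 0.28 for Tlr1, -0.55 to 0.047 for Tlr2, -1.10 to 0.011 for Tlr3, -0.35 to 0.057 for Tlr4, -0.30 to 0.41 for Tlr6 and -0.19 to 2.06 for Tlr5. Monocyte-macrophage values ranged from -0.21 to 0.14 for Tlr1, -0.17 to 0.64 for Tlr2, -0.71 to 0.64 for Tlr3 and -0.14 to 0.19 for Tlr8, neutrophil Tlr2 from -1.27 to 0.80 and astrocyte Tlr3 from -0.55 to 0.30. Other reversals in microglia were Tlr6 at -0.069 after thinning, Tlr2 at 0.29 in cluster 0, Tlr3 at 0.15 in cluster 1 and Cd14 at -0.014 in cluster 10. In monocyte-macrophages they were Tlr2 at -0.68, Tlr3 at 0.11 and Cd14 at -0.11 in cluster 3, Tlr7 at -0.045 in cluster 8, Tlr1 at 0.015 with those genes kept out of the variable genes, and Tlr8 at -0.012 and -0.00046 at Leiden resolutions 0.5 and 2, -0.0051 with those genes kept out and -0.032 without a filter. Single clusters and the neutrophil subset were chosen as alternatives after seeing the data. The cause was not tested.

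Thinning kept the class with the highest share of cells for 6 of 10 genes, and Tlr6, Tlr8, Tlr13 and Cd14 changed class. The class with the highest level changed for Tlr1 and Tlr9, whose leading classes overlap. The labels do not say whether replicate numbers pair the libraries, and 4 libraries cannot decide it. Correlations of same-numbered deviations were -0.208 in microglia, -0.174 in monocyte-macrophages and 0.242 in neutrophils. With the replicate block 0 of the 10 genes and 6 pathway genes were called over all classes, 1 of them in monocyte-macrophages, where 0.113% of all genes were called. The block also made Htr2b in monocyte-macrophages a call (-2.71, edgeR adjusted p = 0.039, against 0.338 without it). The crossed pairing, chosen after seeing the data, called 1 of the 10 genes, in endothelial cells, where 0.441% of all genes were called, and 10 pathway genes. Depth limits Tlr9 everywhere, and Tlr1, Tlr3, Tlr7 and Tlr8 in Flox neutrophils, where counts were below 40 UMIs. Tlr6 (18 UMIs) and Tlr13 (25 UMIs) were also below 40 in Flox control 1 neutrophils. In cKO neutrophils Tlr3 had 10 and 0 UMIs.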
